A study of Mus musculus with 4 samples.

Results

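Wnt ligands, Frizzled receptors, R-spondins and the secreted inhibitors of the Sfrp and Dkk families were followed through the map of PRDM6 binding in mouse outflow tract smooth muscle cells (SMCs). Members were taken by name from the authors' peak annotation, as each peak whose assigned gene carried the symbol Wnt, Fzd, Rspo, Sfrp or Dkk with its number and no other suffix. The rule used the name alone and no measured value. It found 62 of 13977 peaks, assigned to 16 of the 41 genes of these families in the mm10 gene models, and the other 25 genes had no assigned peak.

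The study asked where PRDM6, an SMC-selective protein with a PR/SET domain and zinc fingers, sits on the genome. Cells were primary outflow tract SMCs grown from mouse embryos shortly before birth, and all of them carried a lentivirus for expression of FLAG-tagged PRDM6, in both groups alike. The 2 PRDM6 ChIP libraries came from immunoprecipitation with an anti-FLAG antibody, and the 2 Input libraries came from chromatin that was not precipitated. What was mapped is therefore a tagged protein made from a lentivirus, and no library from cells without it was analysed here. Its level beside that of the cells' own PRDM6 was not measured here. The study is not clear on whether both immunoprecipitations came from the same sample or were independent, so the spread between them may be technical. A list of peaks holds no expression values, so the identity of the cells could not be checked against marker genes, and whether any member is expressed in them was not measured.

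Wnt proteins are secreted lipid-modified ligands that bind Frizzled receptors and a co-receptor, Lrp5 or Lrp6. In the canonical branch this stabilises beta-catenin, which enters the nucleus and works with DNA-binding factors of the TCF/LEF family, while other branches act on cell polarity and calcium. R-spondins raise signalling by keeping Frizzled receptors at the surface, Sfrp proteins bind Wnt ligands outside the cell, and Dkk1 and Dkk2 bind the Lrp co-receptors. In the outflow tract and the vessel wall, Wnt signals are known to take part in the growth of the cardiac progenitors and in the phenotype of SMCs.

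The sequences at 4 peaks are shown first, 1 each from the ligands, the receptors, the R-spondins and the Dkk inhibitors. For Wnt2, Rspo2 and Dkk3 this is the strongest peak of the family. For the receptors it is the strongest peak of Fzd7, since the sequence of Fzd8, which had a stronger one, is not shown. Each is the 201 bases around the summit of the matched peak, on the mm10 build (GRCm38), 5′ to 3′, and capitals mark a TEAD word (GGAATG, or CATTCC where it is read on the other strand). TEAD factors are DNA-binding partners of the coactivators YAP and TAZ. The word stood 18 bp from the summit at Wnt2 and 2 bp at Rspo2, and the windows of Fzd7 and Dkk3 held no TEAD, AP-1 or TCF/LEF word.
Wnt2 chr6:18045506-18045706 (+ strand): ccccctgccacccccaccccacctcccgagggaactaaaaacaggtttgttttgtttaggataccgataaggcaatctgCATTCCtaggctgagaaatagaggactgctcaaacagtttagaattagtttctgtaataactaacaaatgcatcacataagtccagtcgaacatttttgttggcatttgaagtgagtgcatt
Fzd7 chr1:59410130-59410330 (+ strand): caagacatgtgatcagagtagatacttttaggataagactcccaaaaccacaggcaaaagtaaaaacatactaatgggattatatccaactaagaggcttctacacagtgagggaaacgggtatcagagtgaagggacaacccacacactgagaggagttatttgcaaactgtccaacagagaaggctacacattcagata
Rspo2 chr15:43086127-43086327 (+ strand): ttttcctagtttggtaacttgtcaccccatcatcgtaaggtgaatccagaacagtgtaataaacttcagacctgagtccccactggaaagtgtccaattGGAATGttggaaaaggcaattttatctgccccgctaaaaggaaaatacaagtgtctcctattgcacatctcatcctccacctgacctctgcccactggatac
Dkk3 chr7:112154867-112155067 (+ strand): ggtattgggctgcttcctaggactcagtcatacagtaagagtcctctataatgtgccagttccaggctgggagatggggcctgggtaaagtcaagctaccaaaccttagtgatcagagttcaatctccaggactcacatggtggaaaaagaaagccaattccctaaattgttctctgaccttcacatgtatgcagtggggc

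Shorter stretches show further words found near summits, in some peaks of Fzd1, Fzd7, Rspo2, Rspo3 and Wnt16. They are examples chosen after their values were seen, and the other words counted below are not shown. Capitals mark the TEAD word on either strand, as above. They also mark the AP-1 word of Fos and Jun factors, TGACTCA, which reads TGAGTCA on the other strand. The TCF/LEF words were CTTTGAA and also CTTTGAT, marked on either strand. The peak of Fzd7 held a TEAD word and a TCF/LEF word, that of Rspo3 held both words end to end, and the peaks of Fzd1 and Rspo2 held 2 TEAD words each. The last of the Rspo2 stretches and that of Wnt16 held an AP-1 word.
Fzd1 chr5:4788616-4788734 (+ strand): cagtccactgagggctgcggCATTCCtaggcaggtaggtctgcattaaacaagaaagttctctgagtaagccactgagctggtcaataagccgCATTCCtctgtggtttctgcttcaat
Fzd7 chr1:59411290-59411376 (+ strand): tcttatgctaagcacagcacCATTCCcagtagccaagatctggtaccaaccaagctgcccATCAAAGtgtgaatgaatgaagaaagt
Rspo2 chr15:43158448-43158505 (+ strand): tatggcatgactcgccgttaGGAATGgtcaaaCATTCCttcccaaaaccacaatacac
Rspo3 chr10:29708820-29708872 (+ strand): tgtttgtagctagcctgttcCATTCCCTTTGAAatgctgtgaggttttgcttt
Rspo2 chr15:43179659-43179705 (+ strand): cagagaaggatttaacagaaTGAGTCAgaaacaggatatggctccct
Wnt16 chr6:22216458-22216504 (+ strand): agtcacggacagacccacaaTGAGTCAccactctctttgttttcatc

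Fzd1 and Fzd7 were the members whose transcription start site (TSS) lay under a peak, so their RefSeq promoters are given as well, from 250 bases before to 50 bases after the RefSeq start, on the coding strand. The RefSeq start is not the TSS that the peak annotation used, chr5:4758035 for Fzd1 and chr1:59482424 for Fzd7, and neither printed stretch holds that TSS. The Fzd1 stretch lies outside the first-listed interval of the TSS peak (chr5:4757676-4758161). It lies partly inside the second-listed interval (chr5:4757847-4758343). Both promoters are printed in lower case throughout, since neither held any of the words searched. The Fzd1 promoter had a GC content of 54.0% with 16 CpG dinucleotides, and that of Fzd7 had 66.7% with 24. Over 32851 RefSeq promoters the medians were 52.7% and 7 CpG dinucleotides, and over the 30 promoters of family members they were 69.8% and 28.
Fzd1 chr5:4758167-4758466 (− strand): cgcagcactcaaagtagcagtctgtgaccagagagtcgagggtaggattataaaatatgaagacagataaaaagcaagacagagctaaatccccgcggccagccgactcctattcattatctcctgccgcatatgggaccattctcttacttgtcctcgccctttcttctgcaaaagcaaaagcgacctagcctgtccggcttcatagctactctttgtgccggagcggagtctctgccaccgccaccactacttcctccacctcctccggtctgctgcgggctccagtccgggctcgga
Fzd7 chr1:59481897-59482196 (+ strand): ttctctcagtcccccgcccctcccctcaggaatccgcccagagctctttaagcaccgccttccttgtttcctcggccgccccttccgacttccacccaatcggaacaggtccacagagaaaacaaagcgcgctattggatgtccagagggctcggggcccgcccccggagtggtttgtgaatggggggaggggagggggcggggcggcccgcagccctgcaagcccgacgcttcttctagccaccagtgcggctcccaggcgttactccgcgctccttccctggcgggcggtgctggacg

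The strength of a peak is given as its −log10 p-value from the peak caller MACS2, which compared each immunoprecipitation with its own Input. Replicates appear in the list without names and are called first-listed and second-listed here. The value of the matched peak is the smaller of both. The median member peak had a −log10 p of 5.60, with quartiles of 4.71 and 6.61 and a range from 3.08 to 8.74. Over all 13977 peaks the median was 5.53, with quartiles of 4.39 and 6.92 and a highest value of 28.97. The members thus lay in the middle of the list, and the strongest of them, at Wnt2, exceeded 89.0% of all peaks. In the first-listed replicate the medians of members and of all peaks were both 6.92. The medians of the second-listed replicate were 5.95 for members and 6.61 for all. The first-listed value was the higher at 37 of the 62 member peaks (59.7%) and at 52.1% of all peaks.

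Reproducibility between the replicates was given by the authors as the irreproducible discovery rate (IDR), which estimates how likely a peak is to fail to repeat, judged by where each replicate ranks it. A global IDR of at most 0.05 was reached by 0 of the 62 member peaks, against 3.33% of all peaks. A count of 0 in 62 allows a share of up to 4.84%, so this number of peaks could not tell the members from the rest of the list. The lowest global IDR of a member was 0.151, at Wnt2, and the median was 0.556 against 0.550 over all peaks. The lowest score on the list was shared by 25 member peaks (40.3%) and by 41.4% of all peaks. The gap between the summits called in each replicate had a median of 130 bp (all peaks 121 bp). The summits were within 200 bp of each other at 38 of 62 peaks (61.3%, all peaks 65.2%). Every member peak described below was called in both immunoprecipitations and did not reach this limit.

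**Figure D1:**
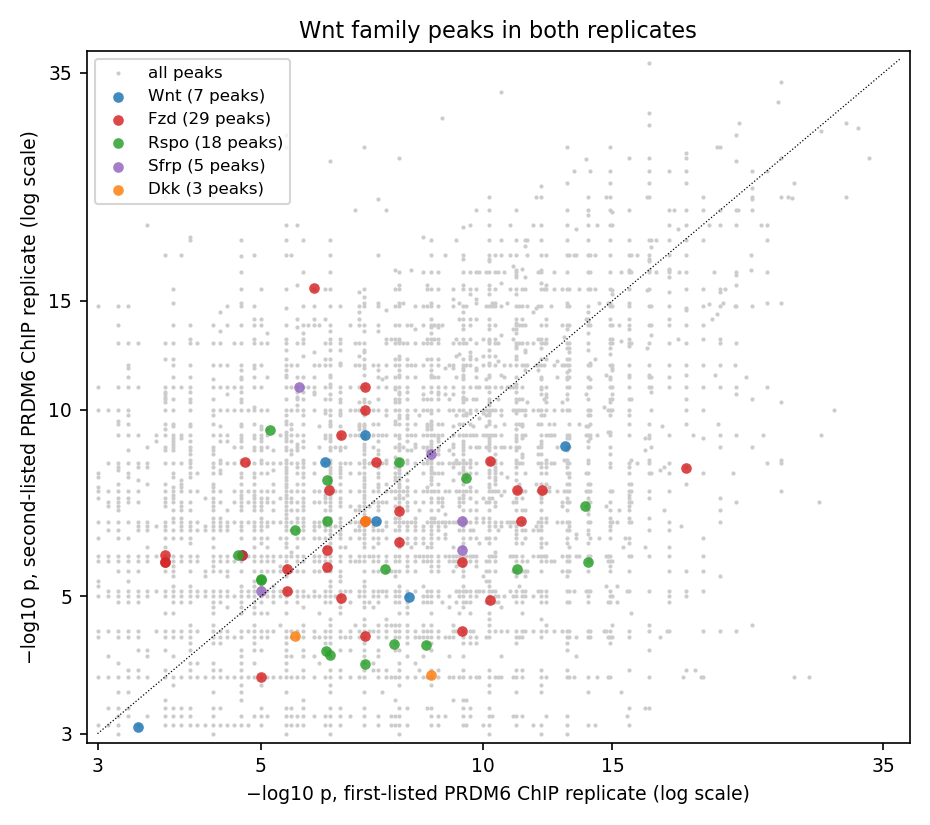
−log10 p-value of each peak in the first-listed replicate (horizontal axis) and the second-listed (vertical axis), both on log scales, with all 13977 peaks in grey (a point may stand for several) and the 62 member peaks coloured by family. The member peaks reach 18.9 and 15.7 on these axes, within the range of the grey points, and 37 of the 62 (59.7%, all peaks 52.1%) lie below the dotted line of equal values.

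The number of DNA fragments under a peak could be read back where the p-value rested on the genome-wide background, a mean of 2.61 fragments in the first-listed and 2.39 in the second-listed replicate. This held for 32 and 28 of the 62 member peaks. Their median height was 15 fragments (9 to 27) in the first-listed and 13 fragments (8 to 23) in the second-listed replicate, where all peaks with a recovered height had medians of 14 and 13. The others were taken to rest on a raised local estimate, which leaves the height unknown and could not be checked without Input values.

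By gene, the 4 of 19 Wnt ligands with an assigned peak (21.1%, 95% Wilson interval 8.51% to 43.3%) stood near the share of all protein-coding genes, 20.0%. The Frizzled receptors had a peak in 5 of 10 genes (interval 23.7% to 76.3%). The R-spondins and the Sfrp inhibitors each had one in 2 of 4 genes, and the Dkk inhibitors in 3 of 4. In all, 16 of 41 members had a peak (39.0%, 25.7% to 54.3%). The intervals cover counting error over genes only, and genes are not replicates of the experiment. A peak within 3 kb of a TSS, the authors' promoter class, was assigned to 8 of 41 members (19.5%), against 8.26% of protein-coding genes. With 5 or more peaks there were 4 of 41 members, namely Rspo2, Fzd8, Fzd1 and Fzd7, against 2.95% of protein-coding genes.

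The shares are set beside the space around each gene, since the annotation assigns a peak to a gene near it. The territory of a gene was taken as the distance from its outermost TSSs to the nearest TSS of another protein-coding gene on either side, summed over both sides. The median was 202.3 kb over the members and 88.6 kb over all protein-coding genes. Genes in the highest quartile of territory, from 205.2 kb up, had a peak in 44.0% of cases, and 12 of the 19 members in it had one. In the next quartile 22.6% of all genes and 1 of 10 members had a peak, in the second 9.74% of all genes and 3 of 10 members, and in the lowest 3.69% of all genes and 0 of 2 members. Members with a peak had a median territory of 364.6 kb, and members without one had 162.6 kb. The part of the territory in the members' share was not tested. Wnt5a with 1086.7 kb and Sfrp2 with 713.8 kb had no assigned peak, although 4 peaks assigned to a non-coding neighbour had Sfrp2 as the nearest protein-coding gene.

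**Figure D2:**
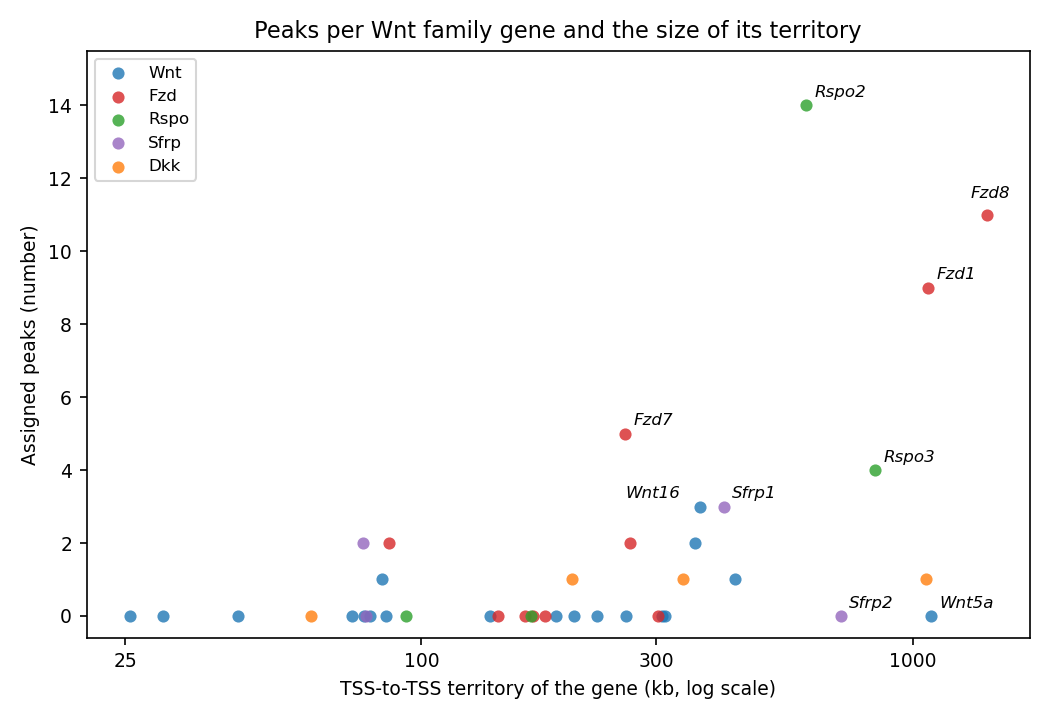
Number of assigned peaks (vertical axis) against the territory of the gene in kb (horizontal axis, log scale), 1 point for each of the 41 family members, coloured by family. Rspo2, Fzd8 and Fzd1 hold 14, 11 and 9 peaks in territories of 605.7, 1413.3 and 1072.9 kb, while Wnt5a and Sfrp2 lie at 0.

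Distances from the gene are given by family, and few genes carried them. The median from the edge of the peak to the TSS was 107122 bp for Fzd, 96005 bp for Sfrp and 82669.5 bp for Rspo peaks, but 17194 bp for Wnt and 8632 bp for Dkk peaks. Over all members it was 71149.5 bp, against 22731 bp over all peaks, and 24 of 62 (38.7%) lay more than 100 kb away, against 19.3% of all peaks. These 24 were 15 Fzd, 7 Rspo and 2 Sfrp peaks. The 15 were 10 of Fzd8 and 5 of Fzd1, while all peaks of Fzd2, Fzd5 and Fzd7 were nearer. The nearest Sfrp1 peak lay at 96005 bp and the farthest Sfrp4 peak at 3264 bp. The 3 Dkk peaks ranged from 3485 bp to 85480 bp. Of the member peaks 35 (56.5%) were distal intergenic, 17 (27.4%) were in introns of the member or of a neighbour, and 10 (16.1%) were at promoters. Over all peaks these shares were 37.2%, 35.9% and 21.3%. The assigned TSS lay under 2 of the 62 member peaks and under 928 of all 13977 peaks. No member peak was annotated to an exon, against 4.1% of all peaks, and 0 of 62 allows a share of up to 4.84%. For each of the 62 peaks the nearest protein-coding TSS was that of the member itself. The median width was 672.5 bp, against 600 bp over all peaks, and 19 member peaks (30.6%) had another peak of the list within 1 kb, against 25.95% of all peaks.

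**Figure D3:**
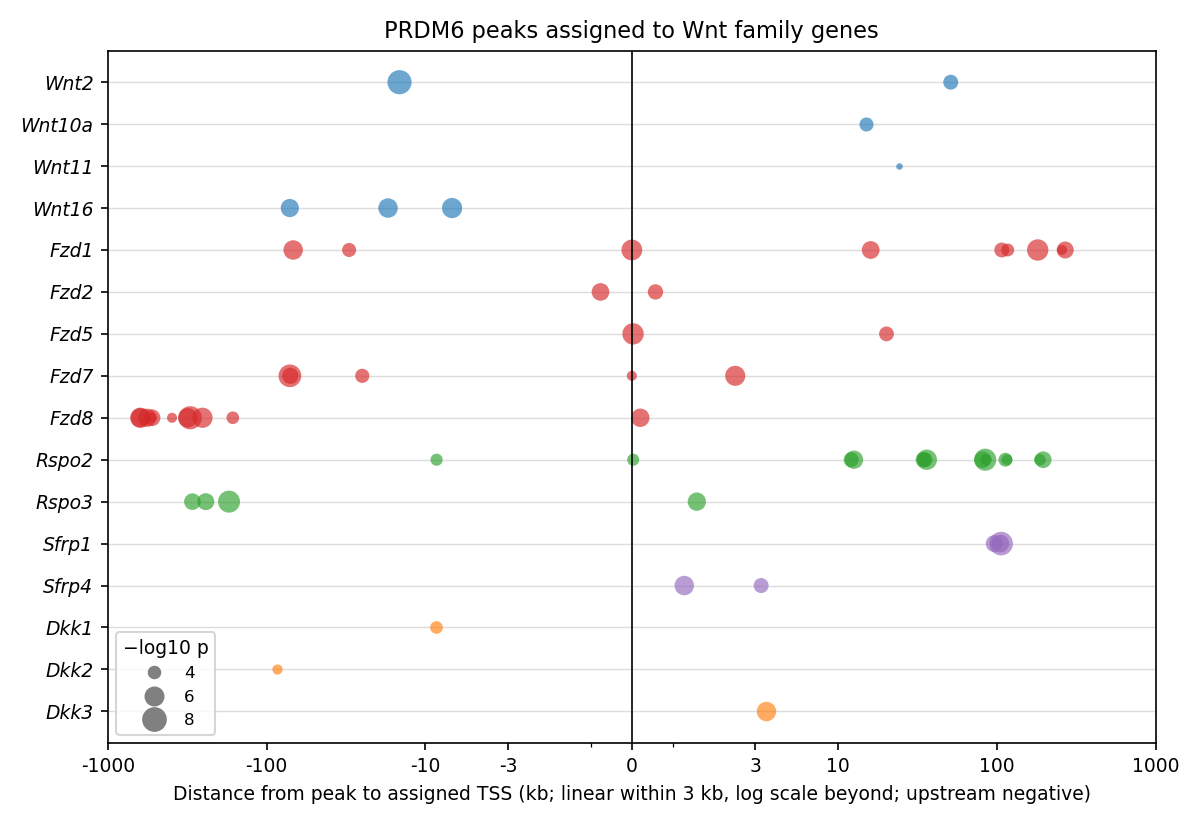
Distance of each of the 62 member peaks from its assigned TSS in kb (horizontal axis, symmetric log scale, downstream positive), 1 row for each of the 16 genes. The area of a point grows with its −log10 p-value, and 10 of the 11 peaks of Fzd8 lie more than 100 kb upstream.

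Among the ligands, 4 genes had 7 peaks between them, 6 intergenic and 1 in an intron, and 0 at a promoter, which with 7 peaks allows a promoter share of up to 42.9%. Wnt2, a canonical ligand of the developing heart and lung, had 2 peaks. The stronger, at chr6:18045144-18045892, lay 14559 bp upstream of the TSS and had a −log10 p of 12.95 in the first-listed and 8.74 in the second-listed replicate. This peak was the strongest of the 62, with 21 fragments in the first-listed replicate, and its summits in the replicates were 272 bp apart. The other, 51096 bp downstream, had values of 7.95 and 4.98.

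Wnt16, a ligand best known from bone, had 3 peaks, all upstream of it. The farthest, 71490 bp away at chr6:22216275-22216737, lay in intron 16 of 21 of the neighbouring gene Cped1 and had a −log10 p of 6.11 and 8.25 in the first- and second-listed replicates. The next, 17194 bp away, had 7.17 and 6.61. The nearest, 6791 bp away, had 6.92 and 9.10, with 14 and 16 fragments, and it was 1750 bp wide with summits 907 bp apart. No replicate was the higher at all 3 peaks.

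Wnt10a, a ligand of tooth and hair development, had a single peak 15023 bp downstream of its TSS at −log10 p values of 4.71 and 5.84, which are 11 and 12 fragments. Wnt11, a ligand of the non-canonical branch with a known role in outflow tract development, also had a single peak. It lay at chr7:98872055-98872247, 24249 bp downstream of the TSS that the annotation used, while its summit was 33291 bp from the nearest Wnt11 TSS of the gene models. Its values of 3.41 and 3.08 (9 and 8 fragments) made it the weakest member peak. The 15 ligands with no assigned peak were Wnt1, Wnt2b, Wnt3, Wnt3a, Wnt4, Wnt5a, Wnt5b, Wnt6, Wnt7a, Wnt7b, Wnt8a, Wnt8b, Wnt9a, Wnt9b and Wnt10b.

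The receptors held 29 of the 62 peaks. Each of the 5 Frizzled genes with a peak, Fzd1, Fzd2, Fzd5, Fzd7 and Fzd8, had at least 1 at its promoter, 7 promoter peaks in all, while 41.3% of all protein-coding genes with a peak had one at a promoter. None of the 4 Wnt and none of the 3 Dkk genes with a peak had one there. The Frizzled genes described below each have a single exon, apart from Fzd5. The 6 RefSeq promoters matched to Frizzled genes, with or without a peak, had a median GC content of 74.2% with 35 CpG dinucleotides. With a peak it was 54.0% (Fzd1), 66.7% (Fzd7) and 75.7% (Fzd5). Without one it was 72.7% (Fzd4), 78.0% (Fzd9) and 77.7% (Fzd10). No promoter was matched to Fzd2, Fzd3, Fzd6 or Fzd8. The receptors without an assigned peak were Fzd3, Fzd4, Fzd6, Fzd9 and Fzd10.

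Fzd1 (chr5:4753839-4758035, minus strand) had 9 peaks over 337.7 kb. The peak at its TSS, chr5:4757676-4758343, had a −log10 p of 7.17 in the first-listed and 8.25 in the second-listed replicate. The interval called in each replicate covered the TSS, and the summits were 116 bp apart. Of the other peaks, 6 lay downstream of the gene, 5 of them more than 100 kb away. The strongest, at chr5:4576825-4577598 and 180437 bp from the TSS, had values of 12.03 and 7.42 with 20 and 14 fragments. The others more than 100 kb away had 9.37 and 5.67 at 268900 bp, 5.00 and 3.71 at 257002 bp, 9.37 and 4.39 at 116786 bp, and 6.42 and 4.97 at 107122 bp. All of these distant peaks were thus higher in the first-listed replicate. The nearest downstream peak, at 15997 bp, had 6.14 and 5.95. The remaining 2 lay upstream, at 30248 bp in an intron of the lincRNA Gm42744 (4.71 and 5.84) and at 68090 bp in intron 13 of Cdk14 (11.29 and 6.61). The first-listed replicate was the higher at 7 of the 9 peaks, and the TSS peak was among the 2 where it was not.

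Fzd7 (chr1:59482424-59486955, plus strand) had 5 peaks over 76.4 kb. The peak over its TSS, chr1:59480789-59484508, was 3720 bp wide, the widest of the 62, and intervals of 3641 bp and 3621 bp were called in the replicates. Its −log10 p was low, 3.70 and 5.84, and both summits lay upstream of the TSS, at 1125 bp and 1096 bp. A second promoter peak began 2512 bp downstream and had values of 7.71 and 6.86. The strongest Fzd7 peak was 71371 bp upstream, at chr1:59409361-59411053, with 18.89 (27 fragments) in the first-listed and 8.05 in the second-listed replicate. The value of 18.89 was the highest of any member in the first-listed replicate, but the summits of this peak were 573 bp apart. A further peak began 212 bp beyond it, with values of 5.42 and 5.53, and the last, 25001 bp upstream, had 4.75 and 8.25.

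Fzd8, a single-exon gene on the plus strand of chromosome 18, had 11 peaks over 627.3 kb, and 10 of these were intergenic and more than 100 kb upstream. The promoter peak began 205 bp downstream of the TSS and had a −log10 p of 6.19 and 7.42, with summits 3 bp apart. Of the distant peaks, the strongest lay 303149 bp upstream with values of 10.23 and 8.28. A pair of peaks 626006 bp and 625448 bp upstream had values of 6.42 and 9.10, and of 6.92 and 10.89. The weakest 2, at 528213 bp and 394780 bp, each had 3.70 and 5.67. The first-listed replicate was the higher at 5 of the 11 peaks. Of the other distant peaks, those at 566534 bp, 527576 bp and 314589 bp had 7.71 and 6.11, 6.15 and 5.57, and 6.92 and 6.61. Those at 253808 bp and 163455 bp had 6.92 and 9.98, and 6.92 and 4.31. Over its territory of 1413.3 kb this made 7.78 peaks per Mb, while Fzd1 had 8.39 and Fzd7 19.3, so the count of Fzd8 came with the widest territory of the 3.

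Fzd2, the remaining close relative of Fzd1 and Fzd7, had 2 peaks, both at its promoter. The one 762 bp upstream, at chr11:102602826-102603634, had a −log10 p of 5.91 in the first-listed replicate and 15.72 (23 fragments) in the second-listed, the highest member value there. The replicates were thus far apart in p-value at this peak, with summits 27 bp apart, and the height in the first-listed replicate could not be recovered. The one 574 bp downstream had 5.42 and 5.10. Fzd5, the closest relative of Fzd8, had a peak 29 bp downstream of its TSS at chr1:64737370-64737720, with 11.12 and 7.42 (19 and 14 fragments) and a GC content of 78.1% around the summit, the highest of any member peak. Its other peak lay in intron 8 of 10 of Ccnyl1, 20120 bp downstream, with 10.23 and 4.93.

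**Figure D4:**
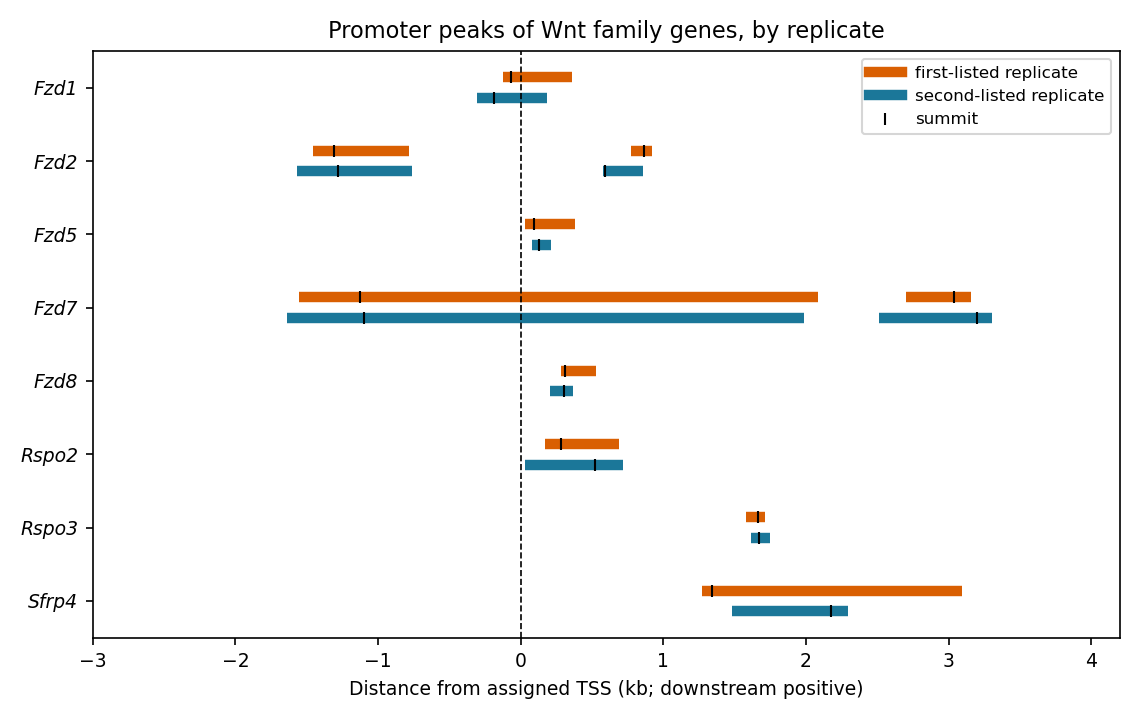
Intervals called in each replicate (orange first-listed, blue second-listed) for the 10 promoter peaks of 8 members, by distance from the assigned TSS in kb (downstream positive), with the summit of each as a tick. Both intervals cover the TSS at Fzd1 and Fzd7 and at none of the other 6 genes.

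Rspo2, an R-spondin that raises Wnt signalling in limb and lung, had more peaks than any other member. The 14 peaks spread over 205.7 kb around the gene (chr15:43020794-43170826, minus strand), 10 in its introns, 3 intergenic and 1 at the promoter. Their median −log10 p was 5.00, below the 5.60 of the members together, and 9 of the 14 had the lowest score on the list. The promoter peak, chr15:43170104-43170785, began 33 bp downstream of the TSS and had 8.38 and 4.17. The strongest, chr15:43085843-43086589 in intron 3 of 5, had 9.49 and 7.76, with summits 568 bp apart. The next, chr15:43133167-43134742 in intron 2, had 13.78 and 6.99. The only peak upstream of the gene lay 8502 bp from the TSS and had 7.57 and 4.19. In these 4 peaks the first-listed replicate was the higher, as it was at 8 of the 14. The 2 intergenic peaks beyond the end of the gene, 195391 bp and 186212 bp from the TSS, had 5.56 and 6.39, and 6.13 and 4.08. In intron 5, the peak at 115513 bp had 6.92 and 3.89 and that at 112970 bp had 4.66 and 5.84. The peaks at 85300 bp and 81110 bp, on either side of the strongest, were lower than it in both replicates, with 6.21 and 4.02, and 7.36 and 5.53. Nearer the TSS, peaks at 35161 bp and 34357 bp had 5.00 and 5.32, and 5.14 and 9.29. The last pair, at 12554 bp and 12049 bp, had 6.15 and 7.70, and 5.00 and 5.34. All 4 of these nearer peaks were higher in the second-listed replicate.

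Rspo2 had 23.1 peaks per Mb of its territory, near the 23.2 of Fzd2 and below the 26.3 of Sfrp4 (2 peaks each in small territories), and its chromosome was dense as a whole, with 8.3 peaks per Mb. The height of only 2 of the 14 peaks in the first-listed and 1 of the 14 in the second-listed replicate could be recovered. The p-values of nearly all of them thus did not rest on the genome-wide background. On chromosome 15 that was general, since the height was recovered for 21.6% and 26.7% of peaks there, against 58.3% and 63.5% over the whole list. The part of the local background in the number of Rspo2 peaks was not tested.

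Rspo3, an R-spondin of vascular development, had 4 peaks. One began 1579 bp downstream of its TSS at chr10:29534117-29534288, with a −log10 p of 6.15 and 6.61 (13 fragments in each replicate). The strongest lay 172656 bp upstream at chr10:29708523-29709292, with 7.71 and 8.25, 15 fragments in each replicate and summits 4 bp apart. The others, at 241857 bp and 293705 bp upstream, were uneven, with 13.90 against 5.67 and 11.12 against 5.53. Rspo1 and Rspo4 had no assigned peak.

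Of the inhibitors that bind Wnt ligands, Sfrp1 had 3 peaks and Sfrp4 had 2. Those of Sfrp1 clustered from 96005 bp to 106079 bp downstream of its TSS. The farthest was the strongest, with a −log10 p of 8.52 and 8.49 in the first- and second-listed replicates and summits 42 bp apart. The other Sfrp1 peaks had 5.63 and 10.89, and 9.37 and 5.95, so that a different replicate was the higher at each. Sfrp4 had a peak at chr13:19626028-19627847 with 9.37 and 6.61 (17 and 13 fragments) that the annotation placed at a promoter, 1273 bp from an alternative TSS. Its summit lay 3407 bp inside the gene as measured from the first base of the gene. The second Sfrp4 peak, in intron 4, had 5.00 and 5.10. Sfrp2 and Sfrp5 had no assigned peak.

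Each of Dkk1, Dkk2 and Dkk3 had a single peak, and in each the first-listed replicate was the higher. For Dkk1 it lay 8632 bp upstream of the TSS with a −log10 p of 5.56 and 4.31. For Dkk2 it lay 85480 bp upstream, in an intron of the lincRNA Gm29865, with 8.52 and 3.73. Dkk3, a diverged member of the family, had the strongest of the 3, at chr7:112154824-112155572 in intron 2 of 7, with 6.92 and 6.61 (14 and 13 fragments). Dkk4 had none. No Dkk peak was at a promoter, against 21.3% of all peaks, and 3 peaks are too few to set a limit on that share. The median of the 3, 4.31, was the lowest of the 5 families. In the first-listed replicate alone their median was 6.92, above the 6.56 of the Rspo peaks.

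The words of the 3 motifs were counted within 100 bp of each summit on both strands. A match is a description of the sequence and not a site of binding. AP-1 words stood at 3 of 62 member peaks (4.84%, 95% Wilson interval 1.66% to 13.3%), in Wnt16, Rspo2 and Fzd8, against 14.3% of all peaks. Outside promoters the counts were 3 of 52 (5.77%, 1.98% to 15.6%) and 15.9%. The members were below all peaks at each window and each summit tried, from 3.23% against 7.61% within 50 bp to 22.6% against 30.7% within 250 bp. The interval ends close to the share of all peaks, and several member peaks belong to the same gene.

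TEAD words stood at 13 of 62 member peaks (21.0%, 12.7% to 32.6%), close to the 19% of all peaks. They were spread over Rspo2 with 5 of its 14 peaks, Fzd1 with 2 peaks, and Fzd7, Fzd8, Wnt2, Wnt10a, Rspo3 and Sfrp1 with 1 each. TCF/LEF words, the letters read by the nuclear partners of beta-catenin, stood at 4 of 62 (6.45%, 2.54% to 15.4%), in Fzd7, Fzd8, Rspo3 and Sfrp4, against 9.40% of all peaks. At the 10 promoter peaks there was no AP-1 and no TEAD word, which allows a share of up to 30.0%, and 1 TCF/LEF word, in Sfrp4. Over all 2976 promoter peaks the shares were 8.33% (AP-1), 15.02% (TEAD) and 7.70% (TCF/LEF). In RefSeq promoters, which are wider windows of 300 bases placed by the start and not by a summit, the words were found in 5.20% (AP-1), 14.7% (TEAD) and 8.65% (TCF/LEF). In the sequences printed above, the Rspo3 peak is the one where a TEAD and a TCF/LEF word stood side by side, 45 bp and 51 bp from the summit.

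**Figure D5:**
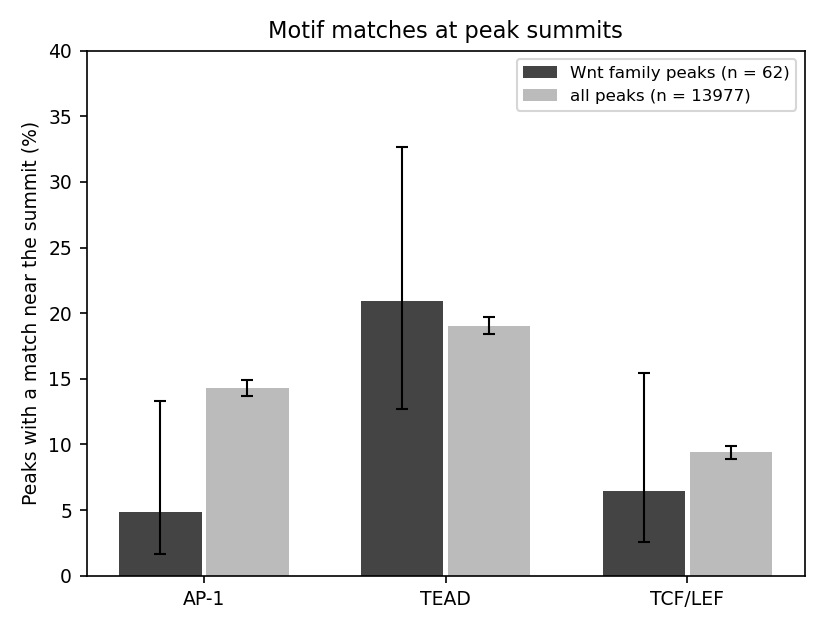
Share of peaks (percent, vertical axis) with an AP-1, TEAD or TCF/LEF word within 100 bp of the summit, for the 62 member peaks and for all 13977 peaks, with 95% Wilson intervals as bars. Members stand at 4.84%, 21.0% and 6.45%, and all peaks at 14.3%, 19% and 9.40%.

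Other genes of the pathway were taken from a list of 57, in groups by role, chosen with earlier results of these data known. A peak was assigned to 22 of them (38.6%, all protein-coding genes 20.0%), 64 peaks in all. Their territories were not compared with those of all genes. Of the 64 peaks 16 were at promoters, in 10 of the 57 genes. Promoters held 21.3% of all peaks, and 8.26% of all protein-coding genes had a promoter peak. A total of 3 of the 64 peaks reached that IDR limit of 0.05, which 3.33% of all peaks did, all in the planar polarity group, where 3 of 9 genes had 12 peaks. Prickle1, a cytoplasmic component of planar polarity, had 5 peaks and 2 of the 3, the strongest at chr15:93743706-93745400, 147815 bp upstream, with a −log10 p of 13.87 and 17.78. Prickle2, its relative, had 5 peaks and the other, at chr6:92532617-92532949 in a promoter 1912 bp downstream of the TSS, with 13.91 and 14.44. The replicates were both high at these peaks. The smaller values, 13.87 and 13.91, were above 8.74, the smaller value of the strongest member peak. Daam1 was the third of the group, with 2 peaks.

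Among the receptors that are not Frizzled proteins 4 of 9 genes had a peak, 7 of the 10 peaks being those of the co-receptor gene Lrp6, the strongest with 10.07 and 9.10 in intron 2, 38020 bp downstream. Ror1, Ryk and Lgr4 had 1 peak each. Of the pair of genes for Wnt secretion, Wls, whose product carries Wnt ligands to the surface, had 10 peaks, 1 of them over the TSS. Its strongest, chr3:159885012-159886744 in intron 2 of 11, had 11.29 and 11.81. Among the other inhibitors and turnover genes 3 of 13 had a peak, namely Kremen1, Znrf3 and Apcdd1. Among the cytoplasmic genes it was 4 of 12, namely Axin2, Gsk3b, Csnk1a1 and Ctnnb1. The nuclear group had the most, 7 of 12 genes with 21 peaks, 10 of them at promoters of 5 genes. In it Tcf7l2, a TCF factor, had 5 peaks, the strongest with 11.12 and 9.98 in intron 4 of 13, 63542 bp upstream of the TSS assigned. Lef1, Tcf7l1, Bcl9, Tle1, Tle3 and Tle4 made up the rest.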

How the data were processed

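ChIP-seq was performed in 4 libraries, 2 PRDM6 ChIP and 2 Input. Paired reads of 151 bases were trimmed and filtered by the authors, aligned to mm10 with BWA at a mapping quality of at least 13, and peaks were called with MACS2 against the matching Input at their p-value limit (the lowest −log10 p in the list was 3.01) and matched by IDR (versions not given in the sources used here). The deposited score is the scaled IDR, where 540 stands for 0.05. The deposited −log10 p-values and −log10 IDR values were used as given, and the column of the annotation headed as a q-value repeated the second-listed replicate's −log10 p-value. Gene assignments and distances to the TSS are the authors'. The replicate columns could not be matched to samples, and no Input value or read total was held.

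Region classes were the authors'. Sequence came from GRCm38, gene models from GENCODE M21 basic and promoters from RefSeq (GRCm38.p6). Territories, motif counts and fragment heights (Poisson tails, tolerance 0.0002) were computed with Python 3.11.15, pysam 0.24.0, NumPy 2.4.6, SciPy 1.17.1 and pandas 2.3.3, drawn with matplotlib 3.10.9, and tested on simulated data. No test was run, since peaks and genes are not replicates. Members and lists were chosen with earlier results of these data known. Every member with a peak was named, and those with a TSS peak, 5 or more peaks or a global IDR of at most 0.05 were described in full. Other pathway genes were given values for 5 or more peaks or such an IDR. The sequence at the strongest Sfrp peak is not reported here. Alternatives were IDR limits, distance limits, nearest-TSS assignment, single replicates, promoter limits, motif windows and flanks.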

Additional observations from a re-analysis of the deposited data

How the results depend on the processing

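Of 33 alternative values, 18 stayed within the set margin and 15 moved. The margin was a ratio of 1.5 for counts, the main value's 95% Wilson interval for shares and 1 SD between the replicates' medians for the −log10 p. At a global IDR of at most 0.05 or 0.01 there were 0 member peaks and 0 member genes, and 2 and 0 of the other pathway genes with a peak, so member strength, promoter share and motif shares could not be given there. Peaks within 100 kb numbered 38, in all 16 genes, and assignment to the nearest TSS gave 80 peaks in 20 genes. The median −log10 p was 6.92 in the first-listed replicate alone. AP-1 shares were 22.6% within 250 bp (all peaks 30.7%) and 0% in flanks 1000 bp away (3.85%), where 0 of 62 allows up to 4.84%. TEAD shares were 8.07% within 50 bp (all peaks 10.4%), 48.4% within 250 bp (38.4%) and 8.07% in the flanks (11.0%), so the order of members and all peaks turned within 50 bp and in the flanks. At the first-listed summit the TCF/LEF share was 3.23% (all peaks 9.57%) and the AP-1 share 8.07% (13.3%). TCF/LEF shares were 1.61% within 50 bp (all peaks 4.54%) and 16.1% within 250 bp (22.3%), and 9.68% in the flanks against 8.86% of all peaks. The causes were not tested. No paired analysis was possible because the list names its replicates only by order, holds no Input values, and no test between groups was run here. Read totals are unknown, and heights could be read for only 32 and 28 of the 62 member peaks.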

Other observations

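Some peaks had a family member as the gene with the nearest protein-coding TSS but were assigned by the authors to another gene, and these 18 peaks are not among the 62. Sfrp2, an inhibitor that binds Wnt ligands and had no assigned peak, was the nearest to 4 of them, 228900 bp to 315561 bp away and assigned to 1700028M03Rik. The strongest of these, chr3:83449014-83452156, had a −log10 p of 10.2 in the first-listed and 17.78 in the second-listed replicate and a global IDR of 0.091, the lowest of the 18. A peak 37058 bp from the receptor gene Fzd4, at chr7:89440994-89441819 in exon 2 of AI314278, had 12.03 and 9.98 with a global IDR of 0.105. The smaller of these, 9.98, lies above 8.74, the smaller value of the strongest peak assigned to a member. In single replicates member peaks reached 18.89 (first-listed) and 15.72 (second-listed). Fzd1 was the nearest to 5 further peaks inside Cdk14, with −log10 p from 4.04 to 6.61, and Fzd5 to 3 inside Plekhm3, from 4.36 to 6.61. The remaining 5 lay nearest to Fzd8, Wnt5b, Wnt7b, Wnt11 and Wnt16. Of these the peak near Fzd8, 669366 bp away and assigned to Wac, had 11.29 and 9.10 with a global IDR of 0.155. The peak near Wnt16, 101149 bp away in intron 15 of 21 of Cped1, had 9.37 and 9.98 with 0.195. The peaks near Wnt5b, Wnt7b and Wnt11 had 7.71 and 7.76, 10.2 and 6.39, and 11.12 and 4.91. Whether any of these peaks acts on the member or on the gene assigned was not tested.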
